A study of Homo sapiens with 36 samples.

Results

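The proteasome is the protease complex that degrades ubiquitin-tagged proteins, and the 41 genes described here encode its subunits, assembly chaperones and activators. They were taken by symbol from 35499 genes with a summed value, and all 41 were found and tested: the alpha ring (PSMA1 to PSMA7), the beta ring (PSMB1 to PSMB7), the immunoproteasome subunits (PSMB8, PSMB9 and PSMB10), the 19S regulator with its ATPases (PSMC1 to PSMC6) and non-ATPase subunits (PSMD1 to PSMD14), and the activators (PSME1 to PSME4). PSMD5, PSMD9 and PSMD10 act as assembly chaperones of the 19S base and are counted with the non-ATPase subunits and the 19S regulator throughout. RNA came from MOLM-13 and MONO-MAC-6, established human acute myeloid leukaemia lines labelled as wild type. Each line received DMSO, the solvent control, or A9, a PROTAC, that is, a compound that brings its target to a ubiquitin ligase so that the proteasome degrades it. All groups were treated for 72 h, and the dose of A9 differed by line: MOLM-13 cells received 0.125 µM, MONO-MAC-6 cells 0.25 µM. The series title gives IKK1 and NR4A1 as the degraded proteins, whereas its design text gives IKK2 and NR4A1. Each group is 1 cultured line, and line and dose cannot be told apart.

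As background, the core particle is a barrel of outer alpha rings, which gate the entry of substrate, and inner beta rings, which hold the catalytic sites. The catalytic beta subunits are PSMB5, PSMB6 and PSMB7. In blood cells and under interferon they can be replaced by PSMB8, PSMB9 and PSMB10, which gives the immunoproteasome and changes the peptides available for antigen presentation. The 19S regulator binds ubiquitin chains, unfolds the substrate with its ring of ATPases and feeds it into the barrel, while the PSME activators open the gate without ubiquitin. The transcription factor NFE2L1 raises proteasome genes together when proteasome activity falls.

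The 36 libraries fell into 4 groups of 9, labelled with 2 numbers, and the 3 libraries sharing a first number were averaged to 1 sample, so n = 3 per group throughout. Nothing in the labels says that samples came from separate cultures, so p-values measure the spread between these samples, which may be technical. Values are TPM, a length-normalised transcript abundance that sums to the same figure in every library, which hold no counts, so depth is unknown and counting error cannot be stated. DMSO sample 1 of MONO-MAC-6 stood apart: its median absolute log2 difference from the other samples of its group was 0.415, against 0.198 and 0.239 for the other DMSO samples and at most 0.0579 for the A9 samples. Of 12 myeloid markers, MOLM-13 had 9 and MONO-MAC-6 had 11 with a mean of at least 1 TPM. Their summed level was 789 to 865 TPM with DMSO and 1007 to 1159 with A9 in MOLM-13, and 4340 to 5261 and 9280 to 9539 in MONO-MAC-6. Summed markers of T, B, erythroid, epithelial and fibroblast cells were at most 16.4 TPM in any sample. In these bulk samples, fewer cells of a type and less RNA per cell cannot be told apart.

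For 6 of the 41 genes the level depends on which transcripts are summed. PSMB3, PSMB8, PSMB9, PSMC4, PSME1 and PSME2 have transcripts listed on alternate sequences of the genome assembly as well as on the reference chromosomes, and the other 35 have none. PSMB8 (chromosome 6, GENCODE 29 on GRCh38, in the major histocompatibility region) averaged 183 TPM in MOLM-13 over all copies, of which 18.0 TPM was on the reference chromosome. PSMB9, its neighbour, averaged 43.6 TPM, of which 2.81 TPM was on the reference chromosome. In MONO-MAC-6 the alternate sequences held 85.1% of PSMB8 and 93.9% of PSMB9. For PSMC4, PSME1 and PSME2 the alternate copies held 50% in both lines. For PSMB3 they held 33.7% (MOLM-13) and 20.2% (MONO-MAC-6). A reference transcript of PSMB8, of 1124 bases, had the same mean of 18.2 TPM as alternate transcripts in MOLM-13 with DMSO. The reference part alone is thus a share of the level of a gene. All copies were summed below.

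**Figure D1:**
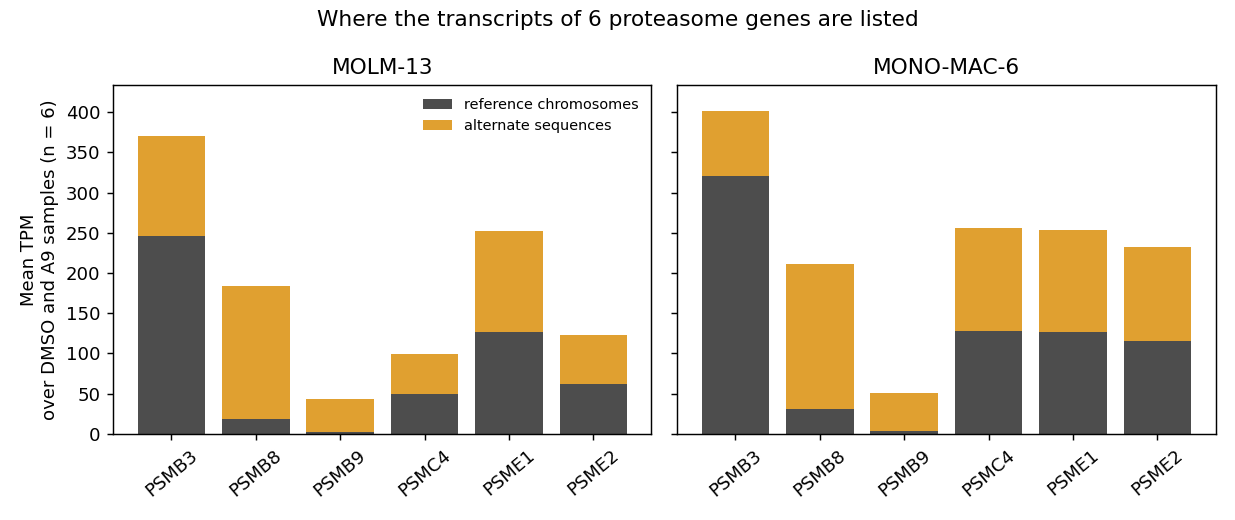
Stacked bars give the mean level in TPM over the 6 samples of each line for the 6 proteasome genes with transcripts on alternate sequences, split into reference chromosomes (dark) and alternate sequences (orange). Most of PSMB8 and PSMB9 lies in the orange part, 90.2% and 93.6% in MOLM-13.

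With DMSO, the subunits covered a wide range of levels. PSMB4, a structural beta subunit, was highest in both lines, with 448 TPM (MOLM-13) and 548 TPM (MONO-MAC-6). PSMD5, which acts as an assembly chaperone of the 19S base, was lowest, with 18.4 and 20.4 TPM. The median level was 234 TPM in the alpha ring, 207 TPM in the beta ring, 117 TPM among the ATPases and 92.7 TPM among the non-ATPase subunits of MOLM-13. Both tissue-specific subunits were at or near 0: PSMB11 of the thymus was listed at 0 in all 12 samples, and PSMA8 of the testis did not exceed 0.0361 TPM. Side by side and with no test, since the lines come from separate tables, all DMSO samples of MONO-MAC-6 lay above those of MOLM-13 for 18 members and below them for 8, and the lines overlapped for 15. PSMC4 (2.57 times) and PSMD8 (2.31 times) were further above in MONO-MAC-6 than any other member, followed by PSME2 (123 TPM in MOLM-13 and 246 TPM in MONO-MAC-6), and PSMD9 (1.66 times) and PSMA6 (1.60 times) were further above in MOLM-13.

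The immunoproteasome subunits were clearly detected in both lines, with PSMB8 above, PSMB9 below and PSMB10 near or below the constitutive counterpart. In MOLM-13 with DMSO, PSMB8 was 173, 184 and 212 TPM in samples 1 to 3, and PSMB5, the chymotrypsin-like subunit that it replaces, was 101, 111 and 113 TPM. The ratio of PSMB8 to PSMB5 within a sample was 1.72, 1.66 and 1.88. PSMB9 was lower than PSMB6, the caspase-like subunit, with ratios of 0.270, 0.275 and 0.297. PSMB10 was near PSMB7, the trypsin-like subunit, with ratios of 0.829, 0.885 and 0.979. In MONO-MAC-6 with DMSO the ratios were 1.54, 1.51 and 1.46 for PSMB8 to PSMB5, 0.368, 0.426 and 0.389 for PSMB9 to PSMB6, and 0.569, 0.529 and 0.507 for PSMB10 to PSMB7. PSMB8 thus exceeded PSMB5 in every sample of both lines, and PSMB9 stayed below PSMB6 in every sample. On reference-chromosome transcripts alone the mean ratio of PSMB8 to PSMB5 with DMSO would be 0.175 (MOLM-13) and 0.221 (MONO-MAC-6). That sum keeps 9.8% (MOLM-13) and 14.9% (MONO-MAC-6) of the PSMB8 level but all of PSMB5, which has no alternate copies. The order of PSMB8 and PSMB5 can therefore not be read from it.

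The start sites of these genes are shown because the immunoproteasome genes and the PSME1 and PSME2 activator genes are known targets of interferon. The 150 bases before the transcript start (RefSeq, GRCh38.p14) are printed 5′ to 3′ on the strand of the gene, for PSMB5 at chr14:23035221-23035370 (minus), PSMB8 at chr6:32844680-32844829 (minus), PSMB9 at chr6:32854042-32854191 (plus), PSMB10 at chr16:67936851-67937000 (minus) and PSME2 at chr14:24146611-24146760 (minus). For PSMB5 and PSMB8, which have 2 listed windows each, the first is shown. Capitals mark matches, on either strand, to an interferon-stimulated response element core (GAAA and GAAA parted by 2 bases of any kind), an antioxidant response element core (TGACNNNGC), to which NFE2L1 and its relatives bind, or a gamma-activated site (TTCNNNGAA).
PSMB5: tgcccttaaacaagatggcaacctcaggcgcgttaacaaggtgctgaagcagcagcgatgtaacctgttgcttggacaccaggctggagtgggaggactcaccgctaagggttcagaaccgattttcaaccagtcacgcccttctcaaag
PSMB8: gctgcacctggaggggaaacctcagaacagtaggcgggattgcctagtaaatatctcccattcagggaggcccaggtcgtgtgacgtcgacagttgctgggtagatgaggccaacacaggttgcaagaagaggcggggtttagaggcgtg
PSMB9: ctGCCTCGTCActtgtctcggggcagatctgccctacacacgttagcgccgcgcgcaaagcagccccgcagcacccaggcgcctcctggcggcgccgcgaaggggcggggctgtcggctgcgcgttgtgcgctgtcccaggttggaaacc
PSMB10: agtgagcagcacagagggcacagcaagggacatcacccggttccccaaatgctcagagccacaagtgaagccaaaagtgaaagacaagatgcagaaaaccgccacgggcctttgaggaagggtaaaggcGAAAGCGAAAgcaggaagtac
PSME2: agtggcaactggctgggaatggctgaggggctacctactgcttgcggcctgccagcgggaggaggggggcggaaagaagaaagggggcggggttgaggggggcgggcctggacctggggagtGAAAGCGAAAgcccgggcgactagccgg
PSMB10 and PSME2 hold the same 10 letters, GAAAGCGAAA, which end 12 and 19 bases before the start. Over the 250 bases before each start, windows were found for 36 of the 41 members. An interferon-stimulated response element core lay in 4 of the 36 (PSMA4, PSMB4, PSMB10 and PSME2; 11.1%), against 3.71% of 27305 genes with a window. An antioxidant response element core lay in 11 of the 36 (30.6%, against 13.2%) and an NF-kB motif in 1, PSMA4 (2.78%, against 11.8%). A gamma-activated site lay in 6 (PSMA2, PSMB5, PSMB8, PSMC4, PSMD3 and PSME3; 16.7%, against 8.09%). Those of PSMB5 and PSMB8 lie in the second window, which is not printed. A match is a description of letters and not a measured site.

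In MOLM-13, A9 changed no proteasome gene past the threshold of an adjusted p under 0.05 (limma, Benjamini-Hochberg over 11674 genes, of which 0.154% were called). At an unadjusted p under 0.05 there was 1 of 41, PSMA1, against 8.04% of all genes tested. The log2 fold changes on TPM + 1 ran from -0.19 (PSMC3) to 0.15 (PSME4), and the outer bounds of their 95% intervals over the 41 genes were -0.51 and 0.38. The median was 0.02 over the 41 members and -0.05 over all genes tested. The A9 samples did not overlap the DMSO samples for 3 members higher (against 8.7% of all genes) and 1 lower (against 6.54%), shares that lie at or below the background. The alpha and beta rings summed to 3272, 3455 and 3639 TPM with DMSO and to 3635, 3452 and 3737 TPM with A9, and the 19S regulator to 2276, 2225 and 2183 against 2261, 2344 and 2029 TPM. Both groups overlapped between the treatments.

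Within the rings of MOLM-13, PSMA1, an outer-ring subunit, was 171, 163 and 165 TPM with DMSO and 182, 187 and 180.5 TPM with A9. All A9 samples lay above all DMSO samples, with a log2 fold change of 0.14 (95% interval 0.02 to 0.27) and an adjusted p of 0.534 by limma. PSMA5 was 91.0, 97.9 and 111 TPM with DMSO and 97.7, 84.7 and 97.4 TPM with A9, the lowest alpha value at -0.10 (-0.34 to 0.14). PSMB6 had the highest value of the beta ring, 144, 165 and 184 TPM against 179, 178 and 189 TPM, a difference of 0.15 (-0.08 to 0.38). For PSMA5 and PSMB6 the samples overlapped. PSMB5 (0.05, -0.11 to 0.21) and PSMB7 (0.03, -0.11 to 0.16) were close to 0.

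In the 19S regulator of MOLM-13, the ATPase PSMC3 was 268, 271 and 251 TPM with DMSO and 244, 263 and 191 TPM with A9. Its value of -0.19 (-0.48 to 0.10) was drawn from overlapping groups, with A9 sample 3 the lowest. The transcripts of PSMC3 did not move together. The main one of 1373 bases averaged 142 TPM with DMSO and 154 TPM with A9. Those of 498 and 1580 bases averaged 67.2 and 40.6 TPM with DMSO and 37.6 and 31.1 TPM with A9. PSMC5 was 133, 137 and 136 TPM against 146, 152 and 130 TPM, a value of 0.07. PSMD4, a ubiquitin receptor, was 229, 237 and 253 TPM against 250, 252 and 254 TPM (0.07), and PSMD11 was 47.3, 42.3 and 40.7 TPM against 42.6, 44.0 and 32.3 TPM (-0.14). These groups also overlapped.

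Of the activators in MOLM-13, PSME4, the nuclear activator PA200, was 20.9, 21.5 and 21.9 TPM with DMSO and 23.9, 23.6 and 24.3 TPM with A9. All A9 samples were above all DMSO samples, with a value of 0.15 (-0.03 to 0.34) and an adjusted p of 0.714 by limma. Its transcripts did not move together: the short one of 1422 bases averaged 8.33 TPM with DMSO and 12.5 TPM with A9, whereas the long ones of 7099 and 6581 bases averaged 6.70 and 5.42 TPM with DMSO and 5.64 and 4.70 TPM with A9. PSME1 and PSME2, which form the interferon-inducible PA28 ring together, had values of -0.02 (-0.20 to 0.17) and 0.00 (-0.27 to 0.28), and PSME3, the nuclear PA28 subunit, -0.11 (-0.47 to 0.25). Their samples overlapped.

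In MONO-MAC-6, likewise, no member passed the threshold (limma, adjusted over 12958 genes, of which 3.44% were called), but the values leaned to lower levels in the core particle. At an unadjusted p under 0.05 there were 11 of 41, all lower, against 6.24% of all genes lower. The A9 samples lay below all DMSO samples for 20 of 41 members, against 10.8% of all genes, and above them for 0, against 27.4%. The median log2 fold change was -0.09 over the 41 members, 0.16 over all genes tested and 0.08 over the 5115 genes whose mean was at least that of the lowest member. The log2 fold changes ran from -0.50 (PSMB8) to 0.34 (PSME3), and the outer bounds of the 95% intervals were -0.88 and 0.96. Of the 12 myeloid markers, 10 had a higher mean with A9 in the same samples and 2 a lower one. LYZ made up most of the sum, with a mean of 3413 TPM with DMSO and 7681 TPM with A9, whereas FLT3 was 764 and 650 TPM and MPO 51.9 and 37.7 TPM. The part of the markers in these values was not tested.

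**Figure D2:**
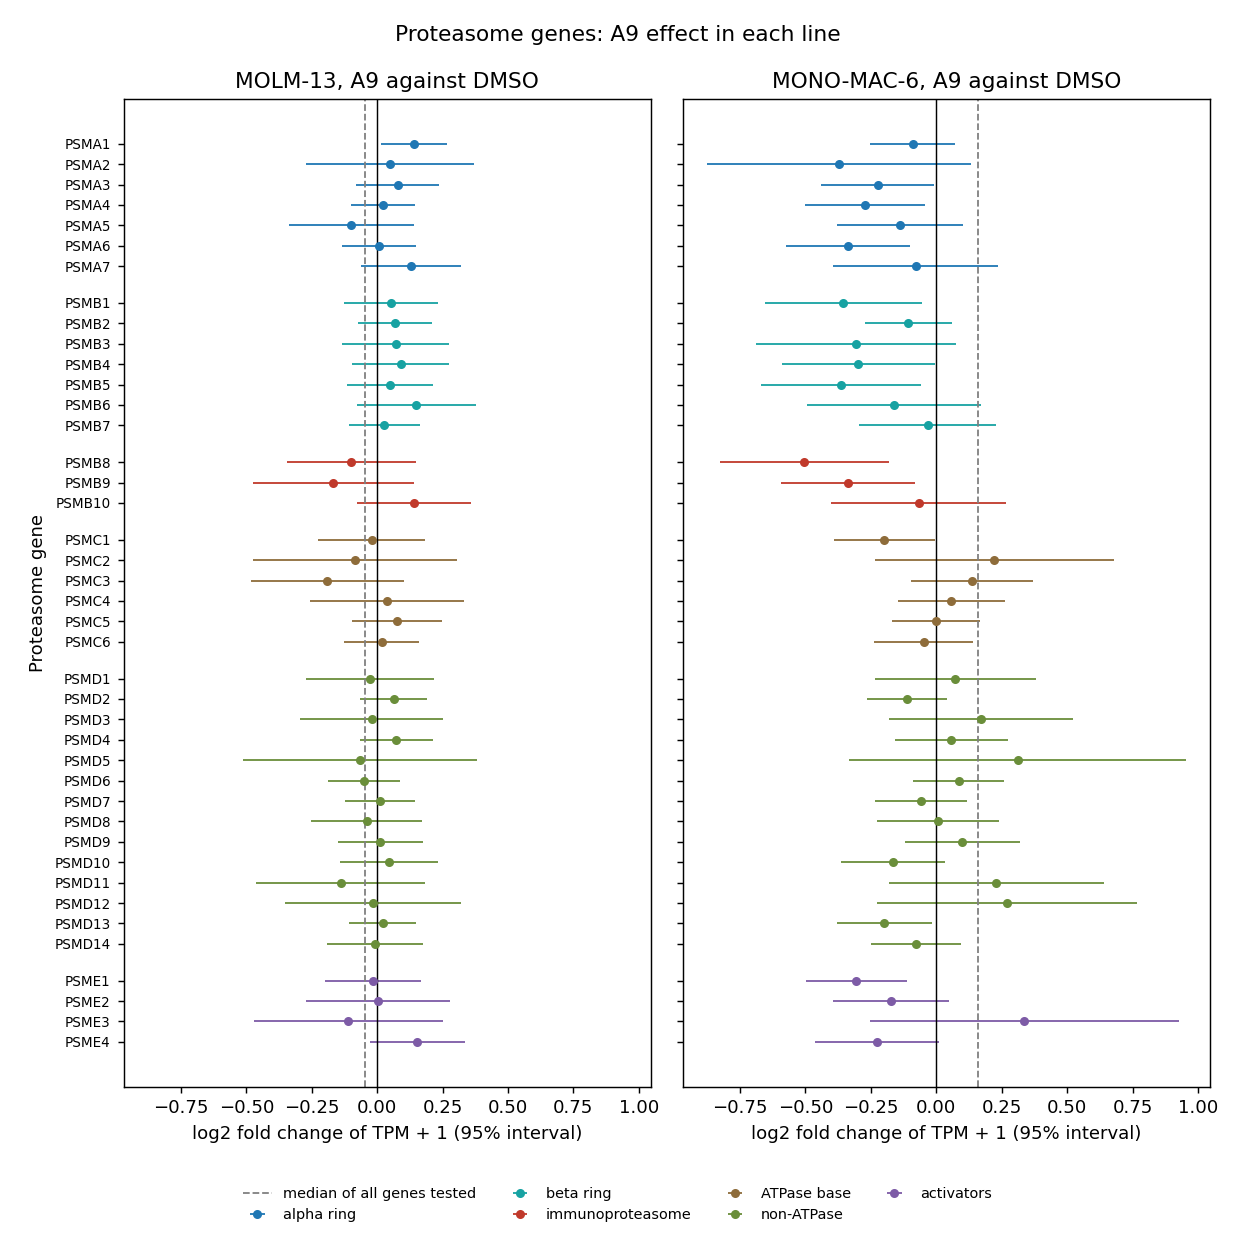
Points give the log2 fold change of TPM + 1, A9 against DMSO, for each of the 41 genes in both lines, with 95% intervals from limma over 3 against 3 samples; colours mark the groups, the solid line is 0 and the dashed line the median of all genes tested (-0.05 and 0.16). In MONO-MAC-6 all 14 ring genes and all 3 immunoproteasome genes lie left of 0, while the 19S genes lie on both sides.

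The rings and the 19S regulator of MONO-MAC-6 differed in their pattern. All 14 ring genes had a log2 fold change below 0, with medians of -0.22 in the alpha ring and -0.30 in the beta ring. Of the 14, 10 had all A9 samples below all DMSO samples, against 10.8% of all genes. Without DMSO sample 1, 12 of the 14 were below 0, and with the trend on transcript length removed 13 were. Of the 20 genes of the 19S regulator, 12 were above 0 and 8 below, with medians of 0.03 among the ATPases and 0.06 among the non-ATPase subunits. Of these 20, 5 did not overlap, all lower, also against 10.8% of all genes. With median-ratio scaling of the samples, which shifted the median of all genes from 0.16 to 0.06, the ATPase and non-ATPase medians turned to -0.09 and -0.05. The rings summed to 4702, 3649 and 3616 TPM with DMSO and to 3355, 3336 and 3379 TPM with A9, so that every A9 sample was below every DMSO sample. The 19S genes summed to 2600, 2801 and 2972 TPM against 2792, 2842 and 2818 TPM and overlapped. DMSO sample 1 was the highest of the ring sums and the lowest of the 19S sums.

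**Figure D3:**
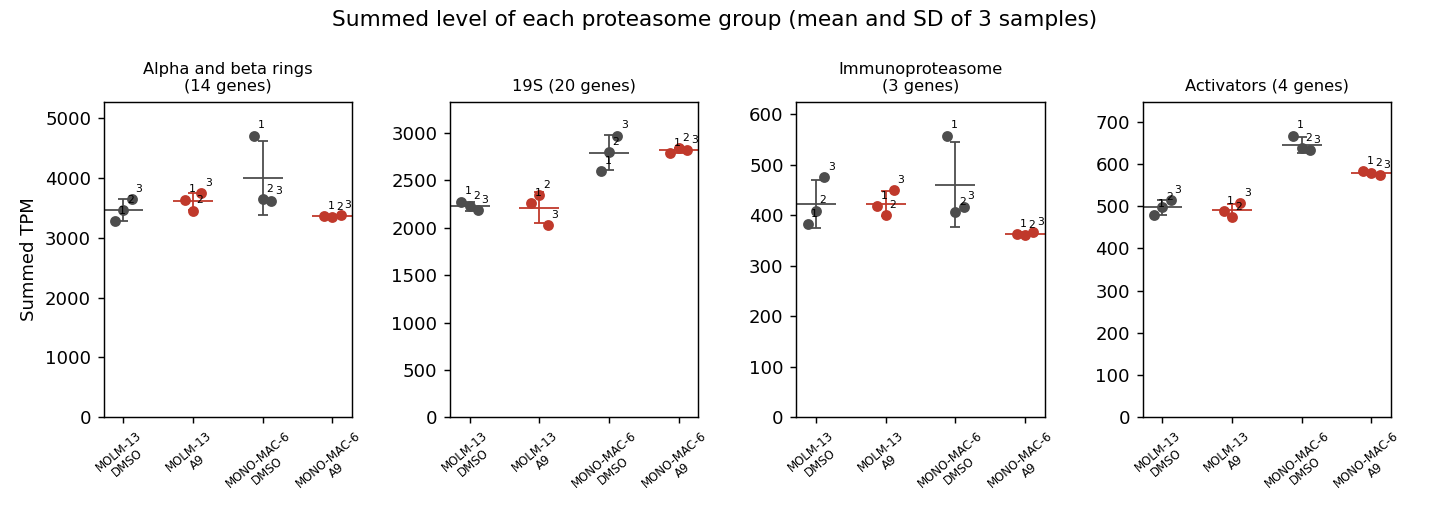
Summed TPM of the members of each group by sample, with samples numbered and the mean and SD of 3 samples drawn as bars, DMSO grey and A9 red. Ring, immunoproteasome and activator sums of MONO-MAC-6 are lower in every A9 sample, and DMSO sample 1 is the highest in all of these.

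Without DMSO sample 1 of MONO-MAC-6, 11 of the 41 members were called lower and 0 higher, against 10.5% and 14.7% of 13015 genes (limma): PSMA3, PSMA4, PSMA6, PSMB1, PSMB4, PSMB5, PSMB8, PSMB9, PSMC1, PSMD13 and PSME1. These 11 are the ones that had an unadjusted p under 0.05 with all samples. Their log2 fold changes ran from -0.35 for PSMB8 (adjusted p 0.000664) to -0.14 for PSMA3 (adjusted p 0.0376). PSMA7 (0.07), PSMB7 (0.08) and PSMB10 (0.09) then lay above 0. The ring median was -0.12 and the 19S median -0.02, beside 0.03 over all genes. This fit assumes that 2 DMSO samples show the spread of the group, and it was chosen among alternatives that left out each sample in turn, of which only this one called any member.

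In the alpha ring, PSMA2 had the lowest value in MONO-MAC-6. It was 304, 187 and 174 TPM with DMSO and 169, 165 and 163 TPM with A9, and the log2 fold change was -0.37 (-0.88 to 0.13). All A9 samples lay below DMSO, but DMSO sample 1 stood far above the other DMSO samples. PSMA6, named after its values were seen, was steadier, with 262, 218 and 211 TPM against 183, 181 and 180.5 TPM, -0.34 (-0.57 to -0.10) and an adjusted p of 0.134 by limma. PSMA7 was highest of the ring at -0.08 (-0.39 to 0.24), with 531, 390 and 395 TPM against 410, 412 and 412 TPM and overlapping samples. PSMA1 was 186, 193 and 181 TPM against 177, 176 and 171 TPM, also with A9 below DMSO, at -0.09 (-0.25 to 0.07).

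In the beta ring, PSMB5 had the lowest value. It was 196, 144 and 154 TPM with DMSO and 129, 121 and 131 TPM with A9, a log2 fold change of -0.36 (-0.67 to -0.06) and an adjusted p of 0.188 by limma. All 3 A9 samples were below DMSO. PSMB6 was 177, 123 and 138 TPM against 127, 128 and 132 TPM (-0.16, -0.49 to 0.17), and PSMB7 was 332, 256 and 270 TPM against 277, 279 and 278 TPM (-0.03, -0.30 to 0.23). For both, the A9 samples lay within the range of the DMSO samples. Thus, of the 3 constitutive catalytic subunits, only PSMB5 had all A9 samples below DMSO, and DMSO sample 1 was the highest for all 3. Their intervals overlapped, and a difference among them was not tested.

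PSMB8, the immunoproteasome counterpart of PSMB5, had the lowest value of all 41 members. It was 303, 218 and 226 TPM with DMSO and 174, 171 and 174 TPM with A9, a log2 fold change of -0.50 (-0.83 to -0.18) with an adjusted p of 0.112 by limma. Every A9 sample was below every DMSO sample. PSMB9 was 65.3, 52.5 and 53.9 TPM against 43.9, 45.9 and 44.9 TPM, -0.34 (-0.59 to -0.08) with an adjusted p of 0.156 by limma, also without overlap. On reference-chromosome transcripts alone the PSMB9 value turned to 0.06, but these averaged 3.13 TPM, 6.1% of the level of the gene. PSMB10, which pairs with PSMB7, was 189, 135 and 137 TPM against 145, 143 and 147 TPM and overlapped, at -0.07 (-0.40 to 0.27). With the trend of each sample on transcript length removed, PSMB8 was the 1 member called, at -0.42 (adjusted p 0.031 by limma, against 1.54% of 12947 genes called lower).

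Ratios within a sample do not move with its scaling. In MONO-MAC-6, PSMB8 to PSMB5 was 1.54, 1.51 and 1.46 with DMSO and 1.35, 1.42 and 1.33 with A9, a mean log2 difference of -0.14, with all A9 samples below. PSMB9 to PSMB6 was 0.368, 0.426 and 0.389 against 0.346, 0.358 and 0.340, a difference of -0.18, also below. PSMB10 to PSMB7 overlapped (0.534 and 0.522 as geometric means). In MOLM-13, PSMB9 to PSMB6 was 0.270, 0.275 and 0.297 with DMSO and 0.240, 0.220 and 0.214 with A9, a difference of -0.32 without overlap, while PSMB8 to PSMB5 (1.75 and 1.58) and PSMB10 to PSMB7 (0.896 and 0.970) overlapped. On reference-chromosome transcripts alone every one of these ratios overlapped between the treatments: PSMB9 to PSMB6 turned to a difference of 0.23 in MONO-MAC-6 and was -0.20 in MOLM-13, and PSMB8 to PSMB5 was -0.07 in MONO-MAC-6. These transcripts hold a small share of PSMB8 and PSMB9. For PSMB9 to PSMB6 in MONO-MAC-6 the SDs of the log2 ratio rose from 0.11 (DMSO) and 0.04 (A9) to 0.28 and 0.43. The exact two-sided permutation p was 0.1 for the 3 comparisons without overlap, the smallest that 3 against 3 samples allow, and 0.2 to 0.7 for the others. Adjusted over the 6 tests the values were 0.20 to 0.70, so none could pass the threshold.

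**Figure D4:**
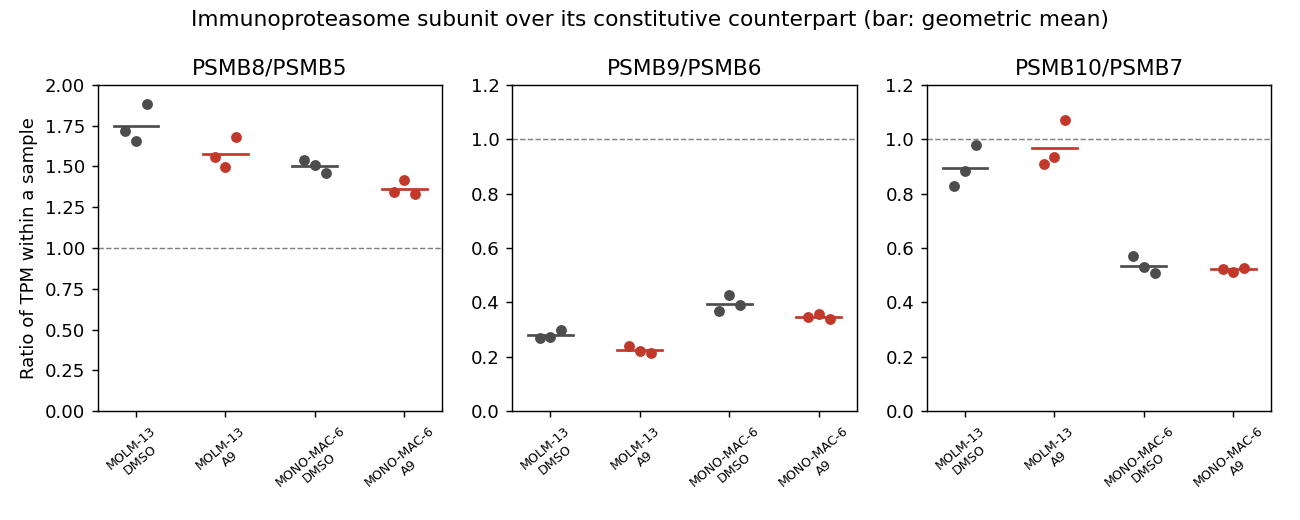
Each point is the ratio of TPM of an immunoproteasome subunit to its constitutive counterpart in 1 sample, with the geometric mean of 3 samples as a bar and a dashed line at a ratio of 1. PSMB8 exceeds PSMB5 in all 12 samples, and PSMB9 to PSMB6 is lower in every A9 sample of both lines than in the DMSO samples of the same line.

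In the 19S regulator of MONO-MAC-6, PSMC1 had the lowest value of the ATPases, with 148, 162 and 171 TPM with DMSO and 139, 140 and 140 TPM with A9 (-0.20, -0.39 to -0.01, adjusted p 0.229 by limma). All A9 samples were below DMSO. PSMC2 had the highest value of the ATPases, 29.9, 45.0 and 49.9 TPM against 47.5, 47.7 and 47.5 TPM (0.22, -0.24 to 0.68), where DMSO sample 1 was far below the other samples. PSMD5, highest of the non-ATPase group, followed the same pattern, with 12.2, 24.6 and 24.4 TPM against 25.2, 23.2 and 24.7 TPM (0.31, -0.33 to 0.96). Its value without DMSO sample 1 was -0.01. PSMD13, a lid subunit, was 155, 141 and 141 TPM against 127, 122 and 130 TPM (-0.20, -0.38 to -0.02), with no overlap. PSMC3, PSMC5, PSMD4 and PSMD11 overlapped between the groups.

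Among the activators of MONO-MAC-6, PSME1 had 305, 274 and 264 TPM with DMSO and 224, 232 and 224 TPM with A9, -0.31 (-0.50 to -0.11), with the lowest adjusted p of the 41 members, 0.108 by limma. PSME2 was 277, 233 and 230 TPM against 221, 215 and 217 TPM (-0.17, -0.39 to 0.05). Both PA28 subunits were lower in every A9 sample. PSME3 was 57.6, 102 and 113 TPM against 114, 109 and 108 TPM (0.34, -0.25 to 0.93), with DMSO sample 1 low. PSME4 was 27.4, 27.5 and 24.7 TPM against 22.4, 21.6 and 23.6 TPM (-0.23, -0.46 to 0.01), with all A9 samples below DMSO. As in MOLM-13, its transcripts did not move together: the short transcript of 1422 bases averaged 11.9 TPM with DMSO and 5.14 TPM with A9, and the longest, of 7099 bases, 7.63 and 10.0 TPM.

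**Figure D5:**
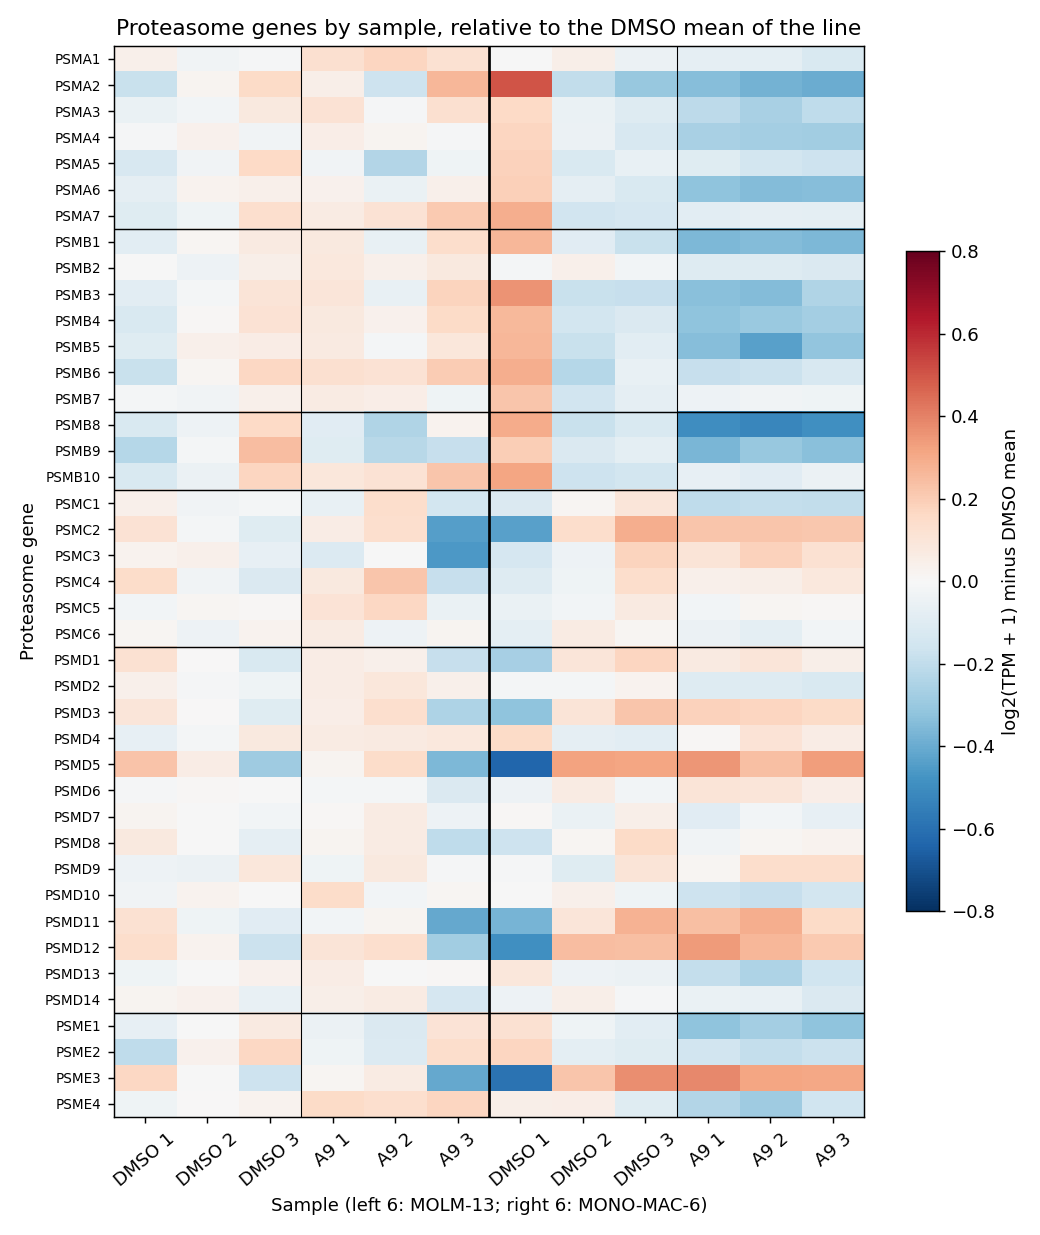
Heat map of log2(TPM + 1) minus the DMSO mean of the line, for the 41 genes (rows, in the order alpha ring, beta ring, immunoproteasome, ATPases, non-ATPases, activators) and the 12 samples (columns; colours saturate at -0.8 and 0.8). DMSO sample 1 of MONO-MAC-6 is high over the rings and low for PSMD5, PSMC2, PSMD12 and PSME3.

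Transcript length moved with the values. The median length, weighted by TPM, was 978 bases for ring genes and 1565 for 19S genes. Across the 41 members, Spearman's rho between length and log2 fold change was 0.485 in MONO-MAC-6 (0.230 without DMSO sample 1) and -0.204 in MOLM-13; genes are not independent replicates, and over all genes tested it was 0.255 and -0.312. The deviation of a sample from the others of its group also went with length, at a rho of -0.614, 0.523 and 0.608 over 9389 genes for DMSO samples 1 to 3 of MONO-MAC-6 and from -0.244 to 0.118 for its A9 samples. In MOLM-13 it ran from -0.635 to 0.644 over 8685 genes. With the length trend removed, the ring median in MONO-MAC-6 was -0.18 and the 19S median 0.11, beside 0.14 over all genes. RNA quality values per sample were not used here, and the part of length or quality in the difference of rings and 19S was not tested beyond this.

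The difference of the A9 effect between the lines (MONO-MAC-6 minus MOLM-13, 12 samples, line and dose together) passed the threshold for 0 of 41 members, against 3.08% of 13496 genes (limma). At an unadjusted p under 0.05 there were 14, all lower, against 6.73% of all genes lower. Medians of the difference were -0.29 in the alpha ring, -0.38 in the beta ring, -0.21 for the immunoproteasome, -0.02 for the ATPases, 0.07 for the non-ATPases and -0.23 for the activators, beside 0.19 over all genes. PSME4 had the lowest adjusted p, 0.085, with a difference of -0.38 (-0.61 to -0.15), and its A9 samples lay above DMSO in MOLM-13 and below in MONO-MAC-6. The MOLM-13 effect on PSMB8 was -0.10 (-0.35 to 0.15), and the difference from MONO-MAC-6 was -0.40 (-0.80 to -0.01) with an adjusted p of 0.270 by limma.

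Genes that make, steer or feed the proteasome were listed beside the members, 61 genes in 7 lists. In MOLM-13, 0 of 57 tested were called by limma, with 4 at an unadjusted p under 0.05, against 8.04% of all genes. All 4 were among the 15 tested genes of the interferon and peptide-supply list. IRF1 (-0.44), ERAP2 (-0.48) and IFNGR2 (-0.28) were lower with A9, and IRF9 (0.31) was higher. Of the 57 tested in MONO-MAC-6, 11 were at an unadjusted p under 0.05, against 20.7% of all genes, and 1 was called, SQSTM1, an autophagy receptor that binds ubiquitin chains, among 13 ubiquitin and shuttle genes. SQSTM1 was 73.1, 85.9 and 92.9 TPM with DMSO and 161, 206 and 178 TPM with A9, and rose by a log2 fold change of 1.10 (adjusted p 0.011 by limma). It lost the call without DMSO sample 2 (adjusted p 0.059), A9 sample 2 (0.074) or A9 sample 3 (0.084). None of the 7 assembly and inhibitor genes passed the threshold in either line (0 at an unadjusted p under 0.05), nor did any NFE2L1-related gene (0 at an unadjusted p under 0.05). NFE2L1 was 27.2, 61.5 and 77.8 TPM with DMSO and 76.4, 79.8 and 70.4 TPM with A9 in MONO-MAC-6, at 0.56 (adjusted p 0.395 by limma). Its DMSO samples 1 and 2 lay below every A9 sample, and DMSO sample 3 did not. Of the interferon and peptide-supply list, 15 were tested and 0 called in MONO-MAC-6, with 5 at an unadjusted p under 0.05. TAP1, the peptide transporter, was 30.9, 28.9 and 33.0 TPM against 27.5, 26.2 and 29.1 TPM and overlapped, and IFNG was listed at 0 in all samples. NFE2L1, TAP1 and IFNG were named after their values were seen.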

How the data were processed

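The deposited tables hold TPM per Ensembl transcript, per the labels of 36 libraries in 2 tables, and each library summed to 1000000. Kallisto, limma and GRCh38 are named in the submitters' processing notes, without versions or roles. The annotation release is not given in the sources used here. Of 207175 transcripts, 177596 (85.7%) were named with GENCODE 29, 15035 of them copies on alternate sequences named through its symbol table; they held 92.5% to 94.1% of TPM. TPM was summed by symbol.

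Libraries sharing a first number differed by a median absolute log2 value of 0.060 to 0.074, and those sharing only the second by 0.085 to 0.432, which is why libraries were averaged by the first. Values were log2(TPM + 1), and genes were kept if either group averaged 1 TPM or more. The test was that of limma 3.58.1 (R 4.3.3, eBayes with trend and robust), two-sided, Benjamini-Hochberg adjusted over all genes, at a threshold of 0.05. The method was tested on simulated data with 200 changed genes, picked at random from genes of all levels kept, and with noise drawn independently for each gene. Of genes raised by a log2 value of 0.5, it called 2.5% (MOLM-13) and 0% (MONO-MAC-6). Of genes raised by 1.5, it called 86% and 74.5%, and with them 11 and 6 unchanged genes. A member that was not called may therefore still have changed. The simulation leaves out shifts that genes of a sample share, such as those with length, so its rates are not rates for the members. The test planned for counts was not needed. Tables used Python 3.11.15, pandas 2.3.3 and scipy 1.17.1, and figures matplotlib 3.10.9. Sequences are from RefSeq (GRCh38.p14).

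The members and lists were chosen with earlier results of these data known. Values by sample are given for PSMB5 to PSMB10, PSME1 to PSME4, called members, and the highest and lowest of each ring and 19S group in each line; related genes are named if called. Alternatives were another pseudocount, filters, thresholds, sample units, a replicate block, median-ratio scaling, removed length or GC trends by lowess, reference-chromosome transcripts alone, and each sample left out.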

Additional observations from a re-analysis of the deposited data

Results flagged for a closer look

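Among the 41 members and the related genes past the threshold, the effect of A9 on 5 genes differed between MOLM-13 and MONO-MAC-6 by a test of the difference, or had opposite directions in all samples of both lines. The difference is MONO-MAC-6 minus MOLM-13 on the log2 scale, and dose differs with line. SQSTM1 passed the test, with a difference of 0.95 (adjusted p 0.015 by limma): it was 45.0 TPM with DMSO and 50.5 TPM with A9 in MOLM-13, and 84.0 and 182 TPM in MONO-MAC-6. HSP90AA1, the stress-inducible HSP90 chaperone, passed with -0.40 (adjusted p 0.015), from 558 to 588 TPM in MOLM-13 and from 568 to 453 TPM in MONO-MAC-6. It lost the call with a replicate block (0.0742), with median-ratio scaling (0.0567) and without any 1 of 4 samples. PSME4 was above all DMSO samples with A9 in MOLM-13 and below in MONO-MAC-6, and the test of the difference of -0.38 gave an adjusted p of 0.085. The order follows the transcript of 1422 bases (8.33 to 12.5 TPM in MOLM-13, 11.9 to 5.14 TPM in MONO-MAC-6), while the one of 7099 bases had the opposite order of means (6.70 to 5.64 and 7.63 to 10.0 TPM). PSMA1 showed the same opposite order, with -0.23 and an adjusted p of 0.121. PSMD2, a scaffold subunit of the 19S base, did too, with -0.17 and an adjusted p of 0.209, and was named after its values were seen. Its main transcript of 3449 bases had the opposite order of means (110 to 104 TPM in MOLM-13, 172 to 177 TPM in MONO-MAC-6), and one of 590 bases had the order of the sum (12.3 to 22.2 and 37.1 to 2.17 TPM). Groups of 3 samples were not tested for single samples that stand apart.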

How the results depend on the processing

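Counts are genes called over all genes, then proteasome genes, by limma. In MOLM-13 the 18 genes called became 5 without a filter and 5 at a threshold of 0.01, 59 with median-ratio scaling, 39 with the length trend removed, 37 with the GC trend removed, and 3 to 9 with each sample left out. In MONO-MAC-6 the 446 became 286 without a filter, 109 at a threshold of 0.01, and 58 to 3280 with each sample left out, the highest without DMSO sample 1 and the lowest without A9 sample 2. For the difference between the lines the 416 became 153 at a threshold of 0.01 and 209 to 552 with each sample left out. With libraries averaged by their second number, 5531, 8795 and 8585 genes and 20, 36 and 35 members were called in MOLM-13, MONO-MAC-6 and the difference, and with each library as its own sample 1789, 5702 and 5696 genes and 3, 23 and 23 members; both treat libraries of 1 sample as separate. Of the members in MONO-MAC-6, 1 was called with the length trend removed and 0 to 11 with each sample left out. Under all other alternatives run, 0 members were called.

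With the first number as a replicate block, 109, 105 and 210 genes and 0 members were called, and HSP90AA1 lost its call (adjusted p 0.0742). Correlations of same-numbered deviations were 0.547, -0.0546 and 0.80 (MOLM-13) and -0.0690, 0.191 and -0.233 (MONO-MAC-6), and not every sample correlated best with its own number. Since the deviations also went with transcript length, these values cannot decide whether the numbers pair the samples. HSP90AA1 also lost its call with median-ratio scaling (-0.55, adjusted p 0.0567) and without any 1 of 4 samples (adjusted p 0.0516 to 0.0618). SQSTM1 lost that of the difference without MOLM-13 DMSO sample 2 (adjusted p 0.0543).

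None of the log2 fold changes that changed sign was past the threshold in the main analysis, where most were near 0, but PSMB9 (-0.34) and PSMD5 (0.31) in MONO-MAC-6 and PSMB9 (-0.17), PSMB10 (-0.21), PSME2 (-0.17) and PSMD5 (0.38) in the difference were not. In MOLM-13 these were PSMB5 -0.019, PSMB7 -0.052, PSME2 -0.073, PSMA2 -0.014 and PSMD13 -0.0011 with the length trend removed, PSME1 0.019 and PSMC1 0.016 with scaling, PSME1 0.0033 and PSMC1 0.020 with the GC trend removed, and PSME2 -0.0021 by second number. In MONO-MAC-6 they were PSMB7 0.041, PSMB10 0.016 and PSMC5 0.058 with the length trend removed, PSMD4 -0.060 with scaling, and PSMB9 0.062 on reference-chromosome transcripts alone. In the difference they were PSMB7 0.054, PSMC5 0.015 and PSMD4 0.11 with the length trend removed, PSMB9 0.085 on reference-chromosome transcripts alone, and, without DMSO sample 1 of both lines (chosen after seeing the data), PSMB7 0.057, PSMB9 0.042, PSMB10 0.0092, PSME2 0.013, PSMA5 0.12, PSMD4 0.094 and PSMD5 -0.055. With each sample left out, the ranges in MOLM-13 were -0.079 to 0.031 for PSME1, -0.099 to 0.086 for PSME2, -0.20 to 0.040 for PSME3, -0.059 to 0.16 for PSMA2, -0.19 to 0.097 for PSMC2, -0.10 to 0.043 for PSMC1 and -0.21 to 0.083 for PSMD5. In MONO-MAC-6 they were -0.11 to 0.078 for PSMB7, -0.15 to 0.089 for PSMB10, -0.025 to 0.037 for PSMC5, -0.16 to 0.067 for PSMA7 and -0.0073 to 0.47 for PSMD5, and in the difference -0.14 to 0.051 for PSMB7, -0.12 to 0.053 for PSMA5 and -0.058 to 0.061 for PSMD4.

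Ratios moved by more than their spread only on reference-chromosome transcripts alone: PSMB9 to PSMB6 to -0.20 (MOLM-13) and 0.23 (MONO-MAC-6), and PSMB8 to PSMB5 to -0.073 in MONO-MAC-6. With the length trend removed, the MOLM-13 medians of the beta ring and activators became 0.011 and -0.085. With scaling, the MONO-MAC-6 medians of the ATPases and non-ATPases became -0.089 and -0.052, and the A9 to DMSO ratios of summed TPM 0.934, 0.929 and, for the activators, 0.819. With each sample left out, medians ran from -0.054 to 0.054 for the non-ATPases and -0.039 to 0.052 for the activators of MOLM-13, and from -0.37 to -0.13 for the beta ring and -0.031 to 0.077 for the non-ATPases of MONO-MAC-6. The causes were not tested. TPM hold no counts, so what depth limits is unknown, and 3 samples a group limit what the test can call.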
